A study of Bos taurus with 94 samples.

Results

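The stable set comprised the 200 genes whose transcript level varied least across 94 RNA sequencing libraries of bovine tissues. Of 24616 Ensembl gene identifiers measured, 1346 (5.47%) had an FPKM of 10 or more in every library, and the 200 of these with the lowest standard deviation (SD) of log2(FPKM + 1) over the libraries were taken. FPKM scales the sequenced fragments of a gene by the length of its transcript and by the number of fragments mapped in the library. The libraries came from Hereford cattle, carried the age label adult (the fetal testis included), and no treatment was labelled. They fall into 35 tissue groups, 19 of them with 2 or more libraries and 16 with 1, including skeletal muscle (11 libraries), brain (8), intestine (6), oviduct (6) and lymphoid organs with blood cells (5). Most groups join neighbouring tissues rather than repeats of a single tissue, and 1 library is an eye cancer. The labels name no animal, so p-values measure the spread between libraries. FPKM totals ran from 585122 to 1062591 per library, and read depth is unknown.

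Genes needed by every cell, such as those of the ribosome, the spliceosome, the proteasome and the respiratory chain, are called housekeeping genes. Some of them serve as internal standards in expression assays, on the assumption that their level is the same in the tissues compared. A tissue that devotes much of its RNA to a few secreted or contractile products leaves a smaller share for all other transcripts, so a level measured relative to the library total can shift with no change in the cell. The files do not pair the identifiers with gene names, so no function is given to any member here, and members are given by identifier. In bulk tissue, fewer cells of a type and less RNA per cell cannot be told apart.

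For many libraries the closest other library, by Spearman's rho over 18031 genes, came from another organ. Of these, 11 were set apart, a choice made by judgement with these correlations known and by no fixed limit. They were labelled choroid plexus (closest to triceps brachii muscle), corpus luteum (longissimus dorsi muscle), diaphragm and gall bladder (closest to each other, at 0.994 the highest rho of all 4371 pairs), adrenal (lymph nodes), vesicular gland (subcutaneous fat), bone marrow (vesicular gland), mammary replicate 1 (pineal gland), follicle 1 (body of the epididymis), trachea (aorta) and ipsilateral isthmus of the oviduct (cervical lining). They are called by their labels. Applied without these 11 libraries, the rule chose 165 of the 200 genes again, and 1476 genes met the FPKM minimum. Other libraries closest to another organ were kept. They included the pigment epithelium of the eye (aorta), left lung (ureter), thyroid (pituitary stalk and median eminence) and prostate (normal outer eye layer).

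Members were moderately expressed. The mean FPKM of a member over the 94 libraries had a median of 46.1, with the middle of the distribution between 34.8 and 72.6 and the extremes at 19.2 and 724. The 1146 genes that met the FPKM minimum but were not chosen had a median of 88.7 and reached 23694. A mean above 100 FPKM was found for 23 members (11.5%) and for 520 of the genes not chosen (45.4%). Sorted by mean level, the lowest 270 of the 1346 genes held 97 members and the highest 269 held 4. The median SD of those 270 genes was 0.52 on the log2 scale, against 0.95 in the highest 269, and across the 1346 genes Spearman's rho between mean level and SD was 0.54. A gene of low mean meets the minimum of 10 FPKM in every library only if it falls little below that mean. The minimum thus favours a low SD at low levels, and part of this relation is set by the rule. The SD chose the members, so these values describe them and were not tested.

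**Figure D1:**
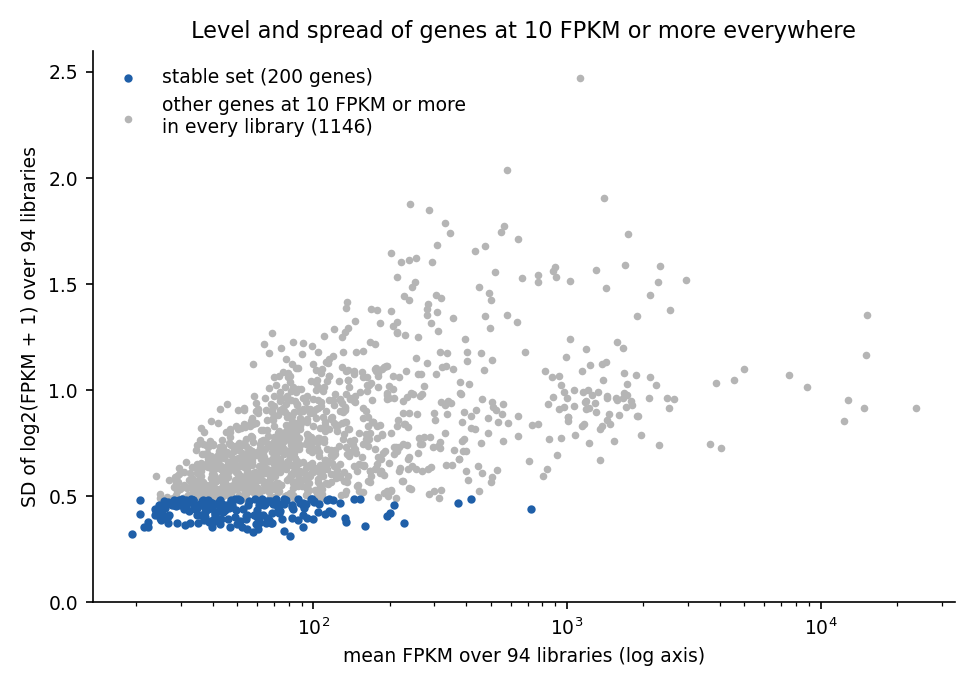
Mean FPKM (log axis) and SD of log2(FPKM + 1) over 94 libraries for the 1346 genes at 10 FPKM or more in every library; each point is a gene, blue for the 200 of the stable set and grey for the others. The members lie at or below an SD of 0.49 and mostly at moderate levels, and most genes of high level have a larger spread.

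The SD of a member ran from 0.31 to 0.49 on the log2 scale, with a median of 0.44, against a median of 0.74 for the genes not chosen. The ratio of the highest to the lowest library had a median of 5.22 over the members and ran from 2.58 to 12.2. It was at most 4 for 33 members. A member lay within 0.5 of its own mean on the log2 scale in a median of 72.5 of the 94 libraries, and more than 1 away from it (2-fold) in a median of 2 libraries. Only 15 members were never 2-fold away from their mean in any of the 94 libraries, and among the genes not chosen there were 0. The least variable genes of this data set thus still covered a several-fold range of FPKM between tissues.

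ENSBTAG00000005660 had the lowest SD (0.31). Its FPKM was lowest in the liver at 46.0, had a median of 76.6, and was highest in the bull testis at 166. The bull testis was the single library more than 2-fold from its mean. It averaged 83.0 ± 25.04 FPKM in skeletal muscle (SD, n = 11), 78.9 ± 22.2 in brain (n = 8), 69.8 ± 4.89 in intestine (n = 6), 82.5 ± 8.21 in oviduct (n = 6) and 65.2 ± 12.1 in the lymphoid group (n = 5). The ranges of these 5 groups overlapped, from 52.7 to 151.8 FPKM in muscle and from 53.8 to 84.6 in the lymphoid group.

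ENSBTAG00000004738 followed with an SD of 0.32 and had the lowest mean of all members, 19.2 ± 4.52 FPKM (SD, n = 94). It ran from 10.3 FPKM in the lower tongue, close to the minimum set by the rule, through a median of 18.8 to 34.6 in the vas deferens, and no library was 2-fold from its mean. Its 6 oviduct libraries lay between 24.3 and 28.5 FPKM and its 11 muscle libraries between 14.3 and 19.3, so these groups did not overlap in spite of the low SD. The gene was chosen for its spread, and this difference is a description.

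The member with the highest mean was ENSBTAG00000017246. It averaged 724 ± 245 FPKM (SD, n = 94), with 268 in rumen papillae, a median of 708 and 2080 in the bull testis. The next highest library, the ipsilateral infundibulum, had 1342 FPKM, so the testis stood well above all others. Its 4 forestomach libraries lay between 268 and 501 FPKM, and the kidney cortex and medulla at 1038 and 1133 FPKM.

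The boundary of the set was not a gap. ENSBTAG00000006423 and ENSBTAG00000019944, the last members, had SDs of 0.4892 and 0.4893, and ENSBTAG00000010545 and ENSBTAG00000010181, the next genes outside, had 0.4895 and 0.4898. ENSBTAG00000019944 ran from 15.9 FPKM in liver to 145.6 in bull testis, and ENSBTAG00000010545 from 24.2 in the lower tongue to 110.4 in the vesicular gland. The SDs on either side of the limit thus differed little, while the ratio of highest to lowest library was 9.13 for ENSBTAG00000019944 and 4.56 for ENSBTAG00000010545.

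The members moved partly together. For each library, the deviation of every member from its own mean over the libraries was taken on the log2 scale, and the median over the 200 members gave the shift of that library. The shift lay within 0.25 of 0 in 75 libraries, and ran from -0.70 in the liver to 0.41 in the library labelled diaphragm. Over all 1346 genes at the FPKM minimum, 60 libraries lay within 0.25 and the range was -0.81 to 0.53. The members were chosen for a low SD over these libraries, so their smaller shifts are partly built in. Removing the library shifts removed 21.5% of the members' summed squared deviations, against 14.1% for all 1346 genes. In a decomposition of the same deviations into components, the first held 24.9% of the variance, and 198 of 200 members had the same sign on it, with the liver (-0.68) at one end and the diaphragm (0.46) at the other.

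The liver had the lowest shift. Its median member FPKM was 26.3, against a median of 46.5 over the libraries, 95% of the members lay below their own mean there, and 43 of 200 were more than 2-fold below it. Mammary replicate 1 followed with a shift of -0.58 and 35 members more than 2-fold below their mean, while the other mammary library had a shift of 0.09. The lower tongue (-0.46), the pigment epithelium of the eye (-0.41), the salivary gland (-0.41), the heart ventricle (-0.32) and the temporal cortex (-0.32) came next. At the upper end stood the diaphragm (0.41), the gall bladder (0.40), the anterior eye (0.37), the bull testis (0.37) and the ipsilateral isthmus (0.34). The diaphragm and gall bladder libraries differed by a median of 0.08 per member in absolute value and by 0.10 per gene not chosen, with 0 genes of either kind 2-fold apart.

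**Figure D2:**
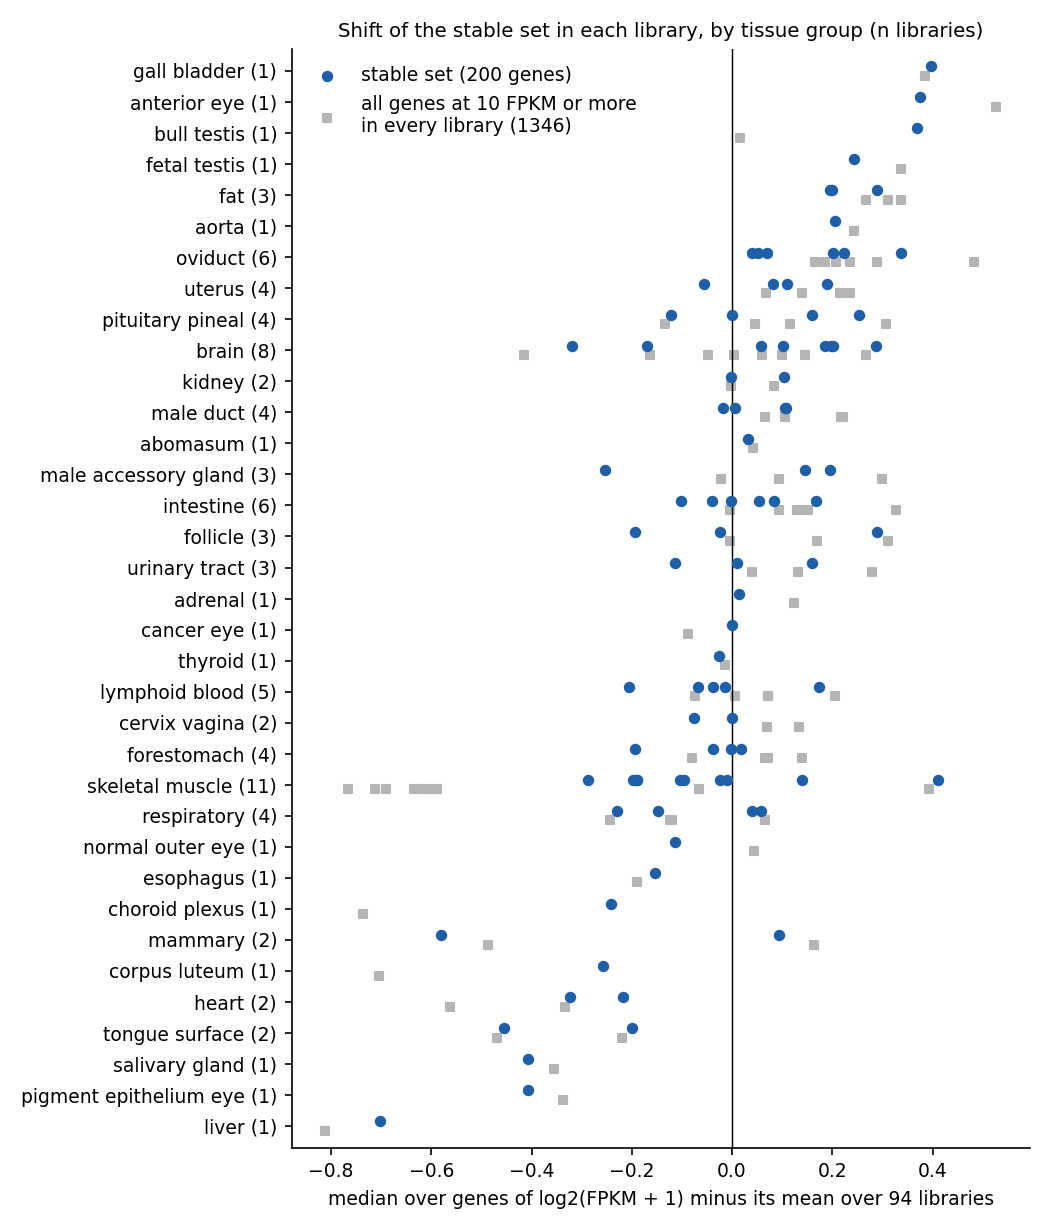
Shift of each library, as the median over genes of log2(FPKM + 1) minus the gene's mean over 94 libraries; blue points are the 200 stable genes and grey squares all 1346 genes at 10 FPKM or more everywhere, with 1 row per tissue group and the number of libraries in brackets. The liver (-0.70) is lowest for the stable set, and 9 of the 11 muscle libraries, all but the diaphragm and the internal tongue muscle, lie nearer to 0 for the stable set than for all 1346 genes.

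Skeletal muscle differed between the stable set and the wider set of broadly expressed genes. The shift of the members averaged -0.07 ± 0.20 over the muscle libraries (SD, n = 11), and that of all 1346 genes -0.50 ± 0.35. Without the diaphragm the means were -0.12 ± 0.12 and -0.59 ± 0.19 (n = 10). The choroid plexus and corpus luteum libraries, both closest to a muscle, showed a like gap, with shifts of -0.24 and -0.26 for the members and -0.74 and -0.70 for all 1346 genes. Muscle supplied 11 of the 94 libraries, and a gene low in all of them had a high SD, so a small shift in muscle is partly what the rule selects. Brain averaged 0.07 ± 0.21 (n = 8), intestine 0.03 ± 0.10 (n = 6), oviduct 0.15 ± 0.12 (n = 6), fat 0.23 ± 0.05 (n = 3) and heart -0.27 ± 0.07 (n = 2).

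The shift went with how much of a library a few transcripts took up. The 10 most abundant genes held between 8.54% and 50.9% of the FPKM of a library. They held 50.9% in mammary replicate 1, 44.7% in the salivary gland and 42.4% in the ventricle, against 9.28% in the diaphragm and 9.21% in the gall bladder. The liver, with the lowest shift, had a share of 17.5%, close to the median of 19.2%. Across the 94 libraries Pearson's r between shift and this share was -0.57 and Spearman's rho -0.54, given as a description, since both come from the same FPKM values and libraries of a group are not independent. The part of the 10 leading genes in the shift was not tested. The correlation of the shift with the log2 FPKM total was weaker (r = -0.19, rho = -0.17).

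Beyond a common shift, some libraries scattered the members apart. With the shift removed, the median absolute deviation of the members was 0.23 in the median library. It was largest in the bull testis (0.51), the internal tongue muscle (0.48), the ipsilateral isthmus (0.46), follicle 1 (0.43), the larynx cartilage (0.42) and the pons (0.41), and smallest in the bladder (0.13) and the cervical lining (0.13). In the bull testis 41 members were more than 2-fold above and 4 more than 2-fold below their mean. The fetal testis had a shift of 0.24 and a scatter of 0.20, with 0 members 2-fold away in either direction.

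A few libraries held many of the extremes. The lowest value of a member fell in the liver for 35 genes, in mammary replicate 1 for 31, in the lower tongue for 17 and in the pigment epithelium for 15, which makes 98 of 200 for these 4 libraries. The highest value fell in the bull testis for 46 genes and in the ipsilateral isthmus for 19. In all, 31 libraries held a lowest value and 41 a highest one. The remaining libraries never marked the end of a member's range.

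**Figure D3:**
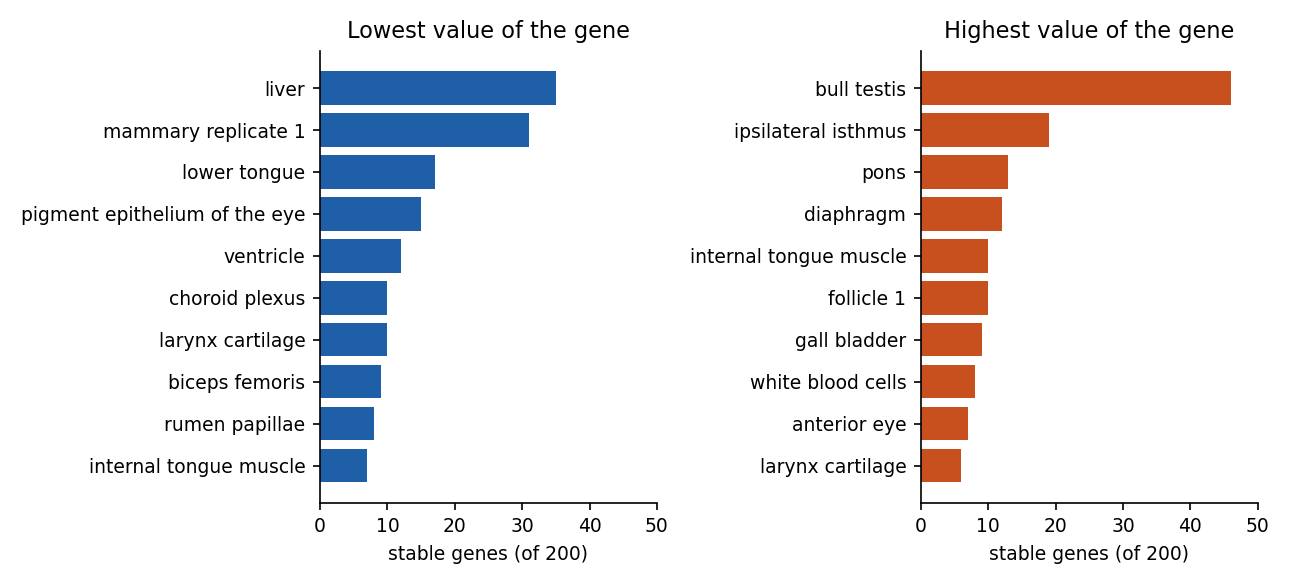
Number of the 200 stable genes whose lowest value (left, blue) or highest value (right, orange) over 94 libraries fell in the library named; the 10 leading libraries of each kind are shown. The liver holds 35 of the lowest and the bull testis 46 of the highest values.

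Many related libraries held the members at like levels, but not all did. The spread between libraries of 1 group, pooled over the 19 groups, had a median of 0.33 over the members, and the SD of the 35 group means a median of 0.41. For the genes not chosen these were 0.48 and 0.66. All these libraries entered the choice of the members, so smaller differences for the members, here and in the pairs below, are partly built in. The spread within groups exceeded the SD of the group means for 21 members (10.5%) and for 72 of the genes not chosen (6.28%). Between ipsilateral and contralateral libraries of 1 segment, the median absolute log2 difference of a member was 0.10 in the ampulla, 0.13 in the infundibulum and 0.12 in the intercaruncular endometrium, with 0 members 2-fold apart in each pair. Of the genes not chosen, 0.79%, 1.22% and 0.17% were 2-fold apart in these pairs, with median absolute differences of 0.15, 0.22 and 0.15, so few broadly expressed genes of either kind differed. Kidney cortex and medulla differed by 0.11 per member, with 0 members 2-fold apart, against 0.14 and 0.35% for the genes not chosen. Follicle 2 and follicle 3, with the same label, differed by 0.32 per member, with 4 members (2%) 2-fold apart. The genes not chosen differed there by 0.34, with 2.79% 2-fold apart, values close to those of the members. The isthmus pair differed by 0.47, with 39 members (19.5%) 2-fold apart, against 0.81 and 443 of the genes not chosen (38.7%). The ipsilateral isthmus library is among the 11 named above.

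Scaling every library to the same FPKM total changed who leads more than who belongs. Scaled in this way, 1246 genes met the FPKM minimum and 164 of the 200 members were chosen again. Of the 36 that were not, 22 no longer met the minimum in some library, among them ENSBTAG00000004738. With the minimum applied to the deposited values, 170 were chosen again. The order of SD over the 1226 genes that met the minimum both ways kept a Spearman's rho of 0.99, but 32 of the 50 lowest and 2 of the 10 lowest genes were shared. The worst rank of a former member that still met the minimum was 299.

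Equal totals did not make the members steadier. Their median SD was 0.47 on the scaled values, against 0.44 as deposited, and the SD was larger after scaling for 177 of 200 members and for 740 of the 1146 genes not chosen (64.6%). The members were chosen for a low SD as deposited, so a larger SD under another scaling is partly built in. The 200 genes chosen anew on the scaled values had a median SD of 0.475. The lowest SD of any gene was 0.38 on the scaled values, against 0.31 as deposited. The shift of the members moved further from 0 in 60 libraries and nearer in 34, and 59 libraries, against 75, lay within 0.25. Mammary replicate 1 moved to -1.06, from -0.58 as deposited, and the nasal mucosa, the library with the highest FPKM total, moved to -0.77, from -0.23. The diaphragm and gall bladder lay at 0.57 each. In the liver the shift was smaller, at -0.50.

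Single genes moved both ways. The places count 1346 genes as deposited and 1246 with equal totals, so part of a gain comes from genes that left the list. ENSBTAG00000015663 went to place 268 with equal totals, from place 106, and ENSBTAG00000020154 to place 261, from place 115. ENSBTAG00000015663 was lowest in the nasal mucosa at 33.2 FPKM, with a median of 73.5 and a highest value of 124 in the ipsilateral infundibulum. Outside the set, ENSBTAG00000026886 gained 287 places and ENSBTAG00000047845 gained 271, and both stayed outside it, at places 305 and 491. Counted over the 1226 genes that met the minimum both ways, they gained 214 and 187 places. ENSBTAG00000047845 was lowest in the liver (26.9 FPKM) and highest in the pons (441), mammary replicate 1 (382) and the internal tongue muscle (333).

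Scaling by genes rather than by totals chose a different set. In the median-of-ratios scaling, each library was divided by its median ratio to the geometric mean over the 1346 genes. It kept 90 of the 200 members, with 14 of the 50 lowest and 0 of the 10 lowest genes shared, and the median SD of the 200 genes it chose was 0.37. The SD of the original members was larger for 95 of 200, with a median of 0.43. Quantile normalization kept 74 and gave a median SD of 0.36 for its own 200 genes. The liver's shift was 0.07 with median-of-ratios scaling and the diaphragm's -0.01, while skeletal muscle averaged 0.41 ± 0.17 (SD, n = 11), above 0.35 in 9 of 11 libraries. Which library had the largest shift thus depended on the scaling. The members were near level in muscle as deposited and high there relative to the other broadly expressed genes, which is partly what the rule selects. When 200 genes were chosen without the muscle libraries, their median log2 difference in muscle was -0.22. It was -0.74 for the other genes at the FPKM minimum outside muscle. Of the 200 members, 62 were chosen under all 4 scalings and 22 under the deposited values alone.

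**Figure D4:**
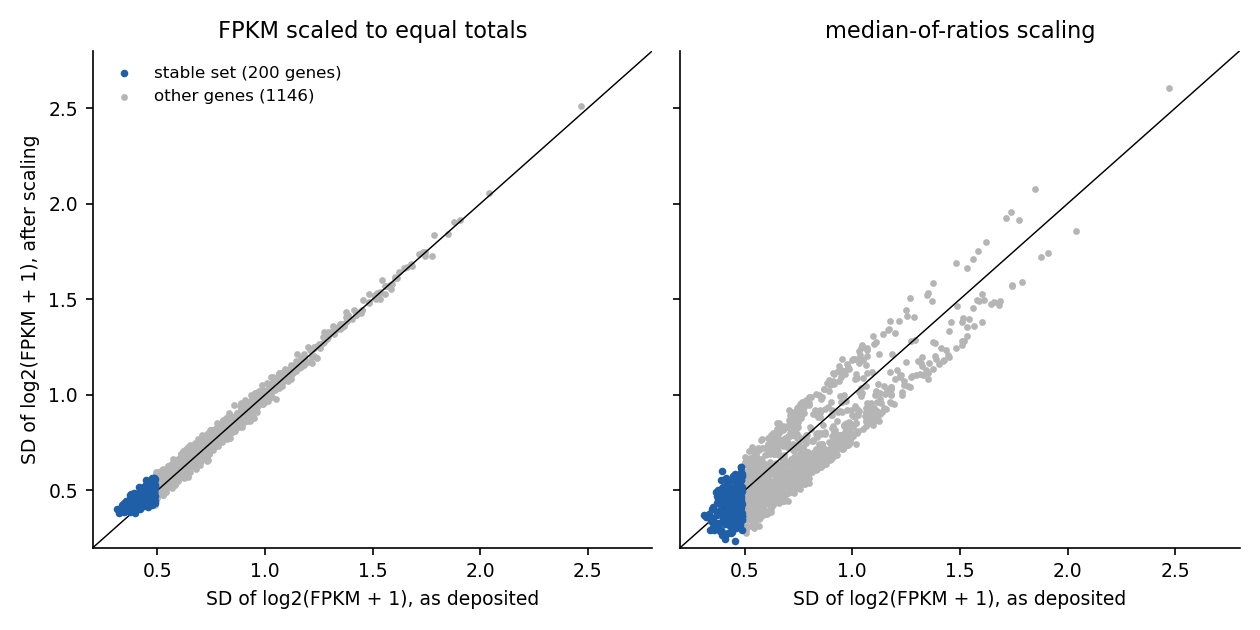
SD of log2(FPKM + 1) over 94 libraries as deposited (horizontal) and after scaling (vertical), with equal FPKM totals on the left and median-of-ratios scaling on the right; blue points are the 200 stable genes, grey points the other 1146 and the line marks equal values. With equal totals 177 of the 200 lie above the line, and with median-of-ratios scaling 95 do.

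Among the 62, ENSBTAG00000006543 had the best worst rank, with places 4, 22, 16 and 7 as deposited, with equal totals, with median-of-ratios scaling and with quantile normalization. It was singled out after its values were seen. Its FPKM was lowest in mammary replicate 1 at 32.8, had a median of 73.8 and was highest in the bull testis at 143. ENSBTAG00000009228 came next, with places 31, 30, 13 and 17 and a range from 20.5 FPKM in rumen papillae to 83.6 in the ipsilateral isthmus. The 62 genes had a median mean level of 60.0 FPKM.

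A measure that the choice did not use was had by leaving a tissue class out of the rule. For each class, 200 genes were chosen by the same rule from the libraries outside it, and their level in the class was then compared with the other libraries with limma. The fit covered all 18031 genes that reached 1 FPKM in at least 3 libraries. A gene was called where the Benjamini-Hochberg adjusted p was under 0.05 and the difference was 2-fold or more. With another scaling, another pseudocount or without the 11 libraries, the 200 were chosen anew, so those counts need not cover the same genes. The chosen genes have a low spread outside the class by construction, which lowers their p, so the size of the difference is what limits the calls. By an unadjusted limma p under 0.05 alone, 131 of the 200 differed in muscle, against 62.4% of all genes tested. In brain 100 did, against 36%, and in oviduct 59, against 19.6%. In the lymphoid group 27 did, against 24.7%.

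In skeletal muscle, 16 of the 200 genes chosen elsewhere were called (limma), 4 higher and 12 lower, against 37.9% of all genes tested, with 4.61% higher and 33.3% lower. The median log2 difference of the 200 was -0.22, and -0.74 for the other genes at the FPKM minimum outside muscle. With quantile normalization and its own 200 genes, 6 were higher and 0 lower, against 11.1% higher and 10.8% lower of all genes tested. Without the 11 libraries named above, again with 200 genes chosen anew, 3 were higher and 35 lower, against 4.86% and 39.1%. Of the 200 chosen from the deposited values of all libraries outside muscle, 155 were members of the stable set. ENSBTAG00000026320 was furthest down, at 16.4, 21.8 and 80.7 FPKM (lowest, median and highest) in the muscle libraries and 29.8, 68.1 and 165 elsewhere. On the log2 scale it differed by -1.37 ± 0.15 (SE, adjusted p = 1.63e-13 by limma), and 10 of 11 muscle libraries lay below the median of the others. ENSBTAG00000000678 was furthest up, at 113, 308 and 395 FPKM in muscle and 46.4, 102 and 226 elsewhere, which is 1.44 ± 0.15 on the log2 scale (SE, adjusted p = 9.85e-14 by limma), above the median of the others in 11 of 11 libraries.

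In brain, 11 of the 200 genes chosen elsewhere were called (limma), 9 higher and 2 lower, against 19.4% of all genes tested, with 12.9% higher and 6.49% lower. With equal totals 9 were higher and 0 lower, against 12.4% and 6.69%. ENSBTAG00000001776 ran at 129, 268 and 505 FPKM (lowest, median and highest) in the 8 brain libraries and 10.5, 53.5 and 95.3 in the other 86, so the groups did not overlap. On the log2 scale it differed by 2.16 ± 0.17 (SE, adjusted p = 3.26e-20 by limma). ENSBTAG00000007537 ran at 9.48, 12.4 and 13.3 FPKM in brain and 14.2, 31.0 and 73.4 elsewhere, again without overlap, which is -1.32 ± 0.17 on the log2 scale (SE, adjusted p = 2.53e-10 by limma). Both genes would have passed as stable in a survey without brain.

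Intestine, oviduct and the lymphoid group departed less. In intestine limma called 0 of the 200 chosen genes, against 6.63% of all genes tested (6.42% higher and 0.211% lower), and 19 had an unadjusted p under 0.05, against 16.2% of all genes tested. The lowest difference was that of ENSBTAG00000003543 (-0.47 on the log2 scale, adjusted p = 0.199 by limma) and the highest that of ENSBTAG00000032812 (0.67, adjusted p = 0.0252), which averaged 60.3 ± 11.4 FPKM in intestine (SD, n = 6) and 39.3 ± 15.1 FPKM elsewhere (n = 88). In oviduct 2 were called, both higher, against 6.26% of all genes tested (6.12% higher and 0.144% lower). ENSBTAG00000007605 led with 277, 292 and 525.6 FPKM in the oviduct and 47.3, 114 and 280 elsewhere, which is 1.45 ± 0.21 on the log2 scale (SE, adjusted p = 3.11e-08 by limma). ENSBTAG00000018897 was lowest relative to the rest, at -0.63 on the log2 scale (adjusted p = 0.0571 by limma). With equal totals 1 was called in oviduct (6.4% of all genes tested), with quantile normalization 0 (4.99%) and without the 11 libraries 1 (6.63%). In the lymphoid group 1 was called, lower, against 10.1% of all genes tested (9.21% higher and 0.876% lower). That gene, ENSBTAG00000012726, differed by -1.11 ± 0.22 on the log2 scale (SE, adjusted p = 4.2e-05 by limma), with 19.9, 26.1 and 60.0 FPKM in the lymphoid libraries and 30.6, 66.4 and 150.2 elsewhere. ENSBTAG00000011414 had the highest difference, 0.69 on the log2 scale (adjusted p = 0.0149 by limma), short of 2-fold. Without white blood cells 0 were called. With quantile normalization 1 of the 200 genes chosen anew was called, higher, against 7.39% higher and 2.22% lower of all genes tested.

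**Figure D5:**
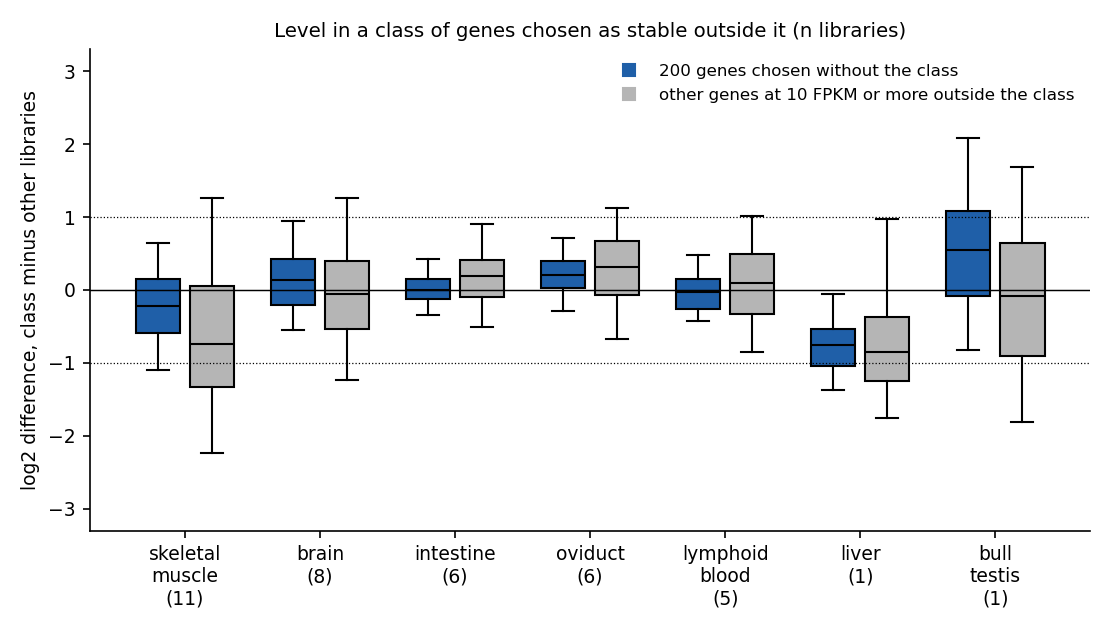
Log2 difference, class minus all other libraries, of the 200 genes chosen as stable outside the class (blue) and of the other genes at 10 FPKM or more in every library outside it (grey); boxes span the 25th to 75th percentile of genes with the median as a line, whiskers the 5th to 95th, and dotted lines mark 2-fold. The chosen genes centre at -0.75 in the liver and 0.55 in the bull testis, and at 0.00 in intestine.

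Each of the 35 groups was held out in the same way, with no test, since 16 groups hold 1 library. The means of larger groups average over more libraries, so counts are not comparable between group sizes. In 12 groups 0 of the 200 chosen genes differed 2-fold, and in 8 groups 10 or more did, against 4.51% to 54.5% of all genes tested in a group. The bull testis had 63, of which 58 were higher and 5 lower, against 41.8% of all genes 2-fold away there, 27.7% higher and 14.1% lower. The liver had 56, of which 1 was higher and 55 lower, against 28.9% of all genes, 9.36% higher and 19.5% lower. The shares of the chosen genes, 31.5% in the bull testis and 28% in the liver, stand beside 36.5% and 44.6% of the other genes at the FPKM minimum. The pigment epithelium had 33 (16.5%, against 20.2%), the library labelled choroid plexus 26 (13%, against 54.5%) and the gall bladder 23 (11.5%, against 22.6%). With the gall bladder left out, its closest library, the diaphragm, stayed in the choice. With the choroid plexus left out, the muscle libraries stayed. The shares of the gall bladder and the choroid plexus are thus partly set by the choice. In all 35 groups the chosen genes had a smaller median absolute difference than the other genes at the minimum, ranging from 0.12 in the urinary tract to 0.76 in the liver.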

How the data were processed

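The deposited table gives FPKM per gene and library, as its name states. HISAT2, StringTie and genome build UMD3.1 are listed in the submitters' processing notes, and the sources used here give no versions or annotation release. The table holds 24616 identifiers and 94 libraries, and 0 identifiers could be matched to a symbol in the gene table used (assembly ARS-UCD2.0), so the gene lists prepared by symbol were not used and no sequences are shown. Libraries were grouped by tissue label. A pseudocount of 1 was used, so folds of low genes are understated. Scaling alternatives were equal FPKM totals (the median total), median-of-ratios scaling over the 1346 genes, and quantile normalization. Python 3.11.15, pandas 2.3.3 and limma 3.58.1 in R 4.3.3 (trend, two-sided) were used. The fit code was also run on simulated normal values, independent between libraries. Those values held no shared library shifts and no choice of genes by SD, so they do not bear on the calls above. Depth is unknown, so no counting intervals are given.

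The members, gene lists, groups, tests and alternatives were chosen with earlier results of these data known. Named genes are the 2 lowest and 2 highest SDs in the set, the next 2 outside, the highest and lowest mean, the 2 largest moves each way with equal totals, and the largest difference each way per class held out.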

Additional observations from a re-analysis of the deposited data

Results flagged for a closer look

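Within groups of 4 to 10 libraries, 36 combinations of group and measure were examined for a library far from the others of its group, and 4 stood out. Chance flags about 1 in 20 among repeats of a single tissue. Most of these groups join different tissues, so the number flagged cannot be read against that rate. The pons stood apart from the other brain regions in the scatter of the stable genes, at 0.414 against 0.230 to 0.279 in the other 7 regions. The ipsilateral isthmus, already among the libraries set apart by judgement, stood apart from the other oviduct libraries in the same measure. It lay at 0.462 against 0.166 to 0.221. ENSBTAG00000004738 had 34.6 FPKM in the vas deferens, against 12.2 to 14.7 in the 3 epididymis libraries. In the caecum it had 23.4 FPKM, against 14.6 to 17.3 in the other 5 intestinal libraries.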

How the results depend on the processing

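The number of the 200 genes chosen again was 74 with quantile normalization, 90 with median-of-ratios scaling, 125 with an FPKM minimum of 1 and 96 with a minimum of 20, where 4558 and 677 genes met the minimum. It stayed between 136 and 194 under equal totals, a pseudocount of 0.1, the SD over group means, the median absolute deviation, the range, and without the choroid plexus library, the 11 libraries or the muscle class. The median SD of the chosen genes was 0.36 with quantile normalization, 0.37 with median-of-ratios scaling and 0.49 with a minimum of 20. Leaving out each library in turn gave 183 to 200 genes chosen again (183 without mammary replicate 1), 1346 to 1431 genes at the minimum and a median SD of 0.43 to 0.44.

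The liver's shift was -0.50 with equal totals, -0.41 with quantile normalization and 0.0701 with median-of-ratios scaling. That of mammary replicate 1 was -1.06, -0.0853 and -0.12. The bull testis lay at -0.18 with quantile normalization, and the diaphragm at 0.11 with quantile normalization and -0.0050 with median-of-ratios scaling. Calls with a class held out were 6 (muscle), 5 (brain) and 0 (oviduct) with quantile normalization, 1 in oviduct with equal totals, and 38 (muscle) and 1 (oviduct) without the 11 libraries, an alternative added after the data were seen. Each of these alternatives chose its own 200 genes. Leaving out each library of the class gave 16 to 22 in muscle, 10 to 14 in brain, 2 to 3 in oviduct, 0 to 1 in the lymphoid group and 0 to 0 in intestine. The causes were not tested. No paired analysis was possible because the labels name no animal.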

Other observations

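The FPKM minimum in every library was often missed in 1 library only. This was so for 309 genes, and 36 libraries kept at least 1 gene out alone. The library labelled choroid plexus kept out 85 of them (27.5%), the larynx cartilage 35 and mammary replicate 1 28, followed by white blood cells with 18. The 85 genes had 0 to 9.93 FPKM in the choroid plexus library, with a median of 6.32, and a median of 44.9 FPKM elsewhere. Of the 85, 7 had an SD over the other 93 libraries below that of the last member, so most of these genes would not have joined the stable set.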
